A study of Mus musculus with 16 samples.

Results

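The comparison concerned VE-cadherin-positive, CD45-negative cells sorted by FACS from the yolk sac and from the embryo proper of control mouse embryos at stage E11.5. By the sample titles, 4 of the 16 arrays of the series belonged to it: 2 from the yolk sac (yolk sac 1 and 2) and 2 from the embryo (embryo 1 and 2). All 4 carried the control genotype on a mixed background (B6/CBA and others). The labels name this gate P3. The CD45-positive cells (gate P4) of the same control tissues, another 4 arrays, served as a comparison. The remaining 8 arrays, from Tie-2-Etv2 transgenic cells, entered the shared estimate of spread. They also entered the filter that kept probes above background and the choice of the brightest probe of a gene. The labels do not say whether embryos were pooled or whether replicates came from separate litters, so the p-values reflect only how far these arrays differed within a group, and part of that may be technical. Every embryo array lay on slide 1 and every yolk sac array on slide 2. In the direct comparison, slide and tissue therefore cannot be told apart.

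VE-cadherin (Cdh5) is the adhesion molecule of endothelial junctions, and CD45 (Ptprc) is the common surface protein of leukocytes. The yolk sac is the first site of blood and vessel formation. Its wall is built of an outer visceral endoderm, which absorbs nutrients and secretes plasma proteins as the liver later does, a mesodermal layer with vessels, and a mesothelium. Endothelial cells of the embryo proper belong to many beds, among them those of the brain, the endocardium and the first lymphatic vessels, and they come to express transcription factors and transporters particular to their bed.

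Sequences upstream of a few genes are given first, as examples of genes whose values are described below. They are RefSeq sequences of build GRCm38.p6, the 250 bases before the annotated transcription start, 5′ to 3′ on the strand of the gene. Of the genes tested, 12907 had such an entry. In the first 4, capitals mark CG dinucleotides. Apoa4 (chr9:46240594-46240843, plus strand), S100g (chrX:162964600-162964849, minus strand) and Afp (chr5:90490464-90490713, plus strand) represent yolk sac endoderm genes, and Foxf2 (chr13:31625566-31625815, plus strand) is a transcription factor gene higher in the embryo.
Apoa4: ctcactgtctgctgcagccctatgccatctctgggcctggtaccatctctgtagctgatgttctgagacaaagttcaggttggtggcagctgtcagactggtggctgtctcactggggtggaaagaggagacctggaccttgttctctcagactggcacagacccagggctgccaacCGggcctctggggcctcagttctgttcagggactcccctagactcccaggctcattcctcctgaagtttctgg
S100g: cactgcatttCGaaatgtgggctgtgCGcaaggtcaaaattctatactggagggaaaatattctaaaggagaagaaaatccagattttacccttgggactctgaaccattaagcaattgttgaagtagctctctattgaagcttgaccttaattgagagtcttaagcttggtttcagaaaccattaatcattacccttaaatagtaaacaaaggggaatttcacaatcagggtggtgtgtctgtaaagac
Afp: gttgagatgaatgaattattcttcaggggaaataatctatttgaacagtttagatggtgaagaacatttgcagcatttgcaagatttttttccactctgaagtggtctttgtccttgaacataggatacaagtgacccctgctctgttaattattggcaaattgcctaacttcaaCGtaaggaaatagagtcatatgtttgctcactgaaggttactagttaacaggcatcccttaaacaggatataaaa
Foxf2: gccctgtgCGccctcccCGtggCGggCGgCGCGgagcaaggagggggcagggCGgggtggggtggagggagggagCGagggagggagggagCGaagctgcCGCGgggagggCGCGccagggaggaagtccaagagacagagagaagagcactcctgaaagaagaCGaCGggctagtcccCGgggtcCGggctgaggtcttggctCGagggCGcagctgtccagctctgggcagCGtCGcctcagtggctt
The windows held 1, 2, 1 and 21 CG dinucleotides, respectively. Foxf2 lay above its own group, since the 30 positional transcription factors with an entry had a median of 14.5. The median over the 33 yolk sac endoderm and liver genes with an entry was 4, against 14 over all 12907 genes. Over the 877 genes higher in the yolk sac with an entry the median was 9, and over the 691 lower ones it was 14.

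The next 2 windows belong to interferon-induced genes that were higher in the yolk sac, Oas1a (chr5:120907526-120907775, minus strand) and Bst2 (chr8:71537473-71537722, minus strand). Capitals mark 2 copies of GAAA separated by any 2 bases, on either strand, the common core of interferon-stimulated response elements.
Oas1a: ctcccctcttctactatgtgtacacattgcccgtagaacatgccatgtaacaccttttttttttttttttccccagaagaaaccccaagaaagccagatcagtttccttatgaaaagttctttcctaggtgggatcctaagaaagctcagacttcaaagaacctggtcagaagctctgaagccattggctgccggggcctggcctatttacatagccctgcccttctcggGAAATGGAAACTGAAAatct
Bst2: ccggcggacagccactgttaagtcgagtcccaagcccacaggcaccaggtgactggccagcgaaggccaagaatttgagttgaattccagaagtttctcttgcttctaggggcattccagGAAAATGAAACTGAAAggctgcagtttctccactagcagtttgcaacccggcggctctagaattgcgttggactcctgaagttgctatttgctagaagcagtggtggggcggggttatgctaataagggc
Each window held 2 matches, which overlap one another. The motif was present in 12 of the 25 interferon response genes with an entry (48%) and in 351 of all 12907 (2.72%). It was present in 2 of the 9 interferon genes with an entry that passed the test below. A match is a run of letters, not a measured binding site.

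Levels are given as log2 of the processed array signal minus the 75th percentile of its array, so a level of 0 is a signal at that percentile. On the 4 arrays the 75th percentile lay between 298 and 458 signal units, and 55.0% to 61.0% of probes were well above background. Over 24578 genes the correlation was 0.979 between the embryo arrays, 0.992 between the yolk sac arrays and 0.952 to 0.955 between tissues. Differences are yolk sac minus embryo from 1 limma fit over the 16 arrays, with Benjamini-Hochberg adjustment over all 24578 genes, and a gene passed at an adjusted p under 0.05. The median difference over all genes was -0.12, and other scalings placed it between -0.05 and -0.01.

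The genes of the sort were looked at first. Cdh5 stood at 5.88 and 5.69 in the embryo and at 5.99 and 5.52 in the yolk sac. The difference was -0.03 ± 0.30 (SE, adjusted p = 0.96), and the arrays of the tissues overlapped. Ptprc was not well above background on any of the 4 arrays. Tek, the angiopoietin receptor whose promoter names the transgene of the series, was at 3.30 and 3.67 in the embryo and at 4.08 and 4.38 in the yolk sac (difference 0.75 ± 0.31, adjusted p = 0.15; 0.047 with normexp background correction). Etv2, an early transcription factor of blood and vessel precursors, was at -0.14 and -0.13 in the embryo and at -2.60 and -2.95 in the yolk sac (difference -2.64 ± 0.96, adjusted p = 0.11). The Etv2 difference passed with normexp (adjusted p = 0.0036) and with only these 4 arrays in the fit (0.0089).

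Of the 24578 genes, 1342 (5.46%) were higher in the yolk sac and 1497 (6.09%) were lower. Which direction held more calls depended on the scaling, with 1601 higher and 1206 lower under scaling to probes detected on every array. At least 2-fold differences were seen in 1107 of the higher and 991 of the lower genes. The counts depended on each array. Without embryo 1 they were 780 and 687, without embryo 2 they were 1167 and 1336, without yolk sac 1 they were 561 and 452, and without yolk sac 2 they were 520 and 356. A set of 487 genes, 352 higher and 135 lower, passed under all 14 alternative settings in which they were tested. Genes from this set are described below as genes that held throughout. For genes that failed to clear background on the arrays of the dimmer tissue, the fold is a lower bound against the lowest detectable signal, written as at least N-fold.

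**Figure D1:**
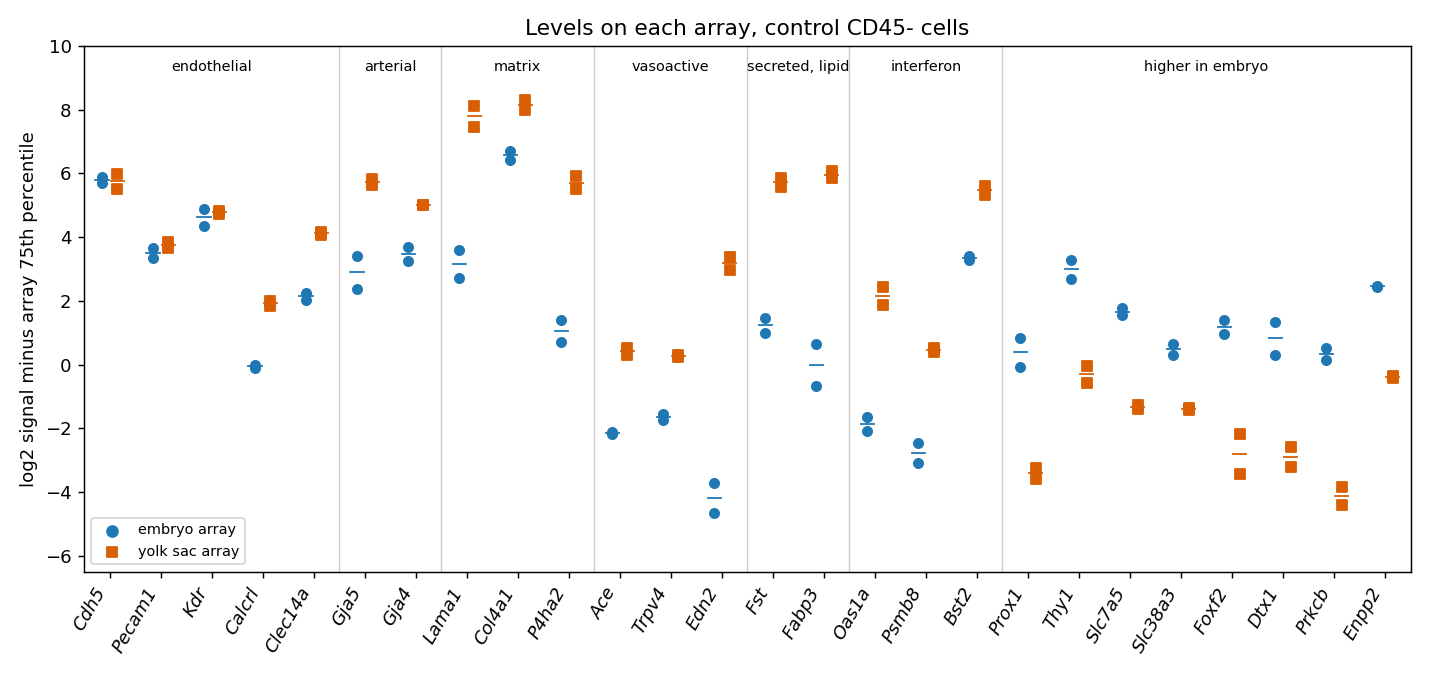
Level of 26 genes on each array (log2 signal minus the 75th percentile of the array, vertical axis), with circles for the 2 embryo arrays, squares for the 2 yolk sac arrays and short lines for their means. Cdh5, Pecam1 and Kdr lie together in both tissues, Fabp3, Edn2 and Lama1 are far higher on the yolk sac arrays, and Prox1, Thy1 and Slc7a5 are higher on the embryo arrays.

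The shares of 5.46% higher and 6.09% lower over all genes are the background for the counts of every list below. Beside them, 4 of 29 pan-endothelial genes tested were higher and 0 lower. The other 25 did not pass, and the list had a median difference of 0.16. Without 1 array, 2 to 3 were higher. Pecam1, a junctional adhesion molecule, and Kdr, the main VEGF receptor, differed by 0.25 ± 0.23 and 0.16 ± 0.26 (adjusted p = 0.54 and 0.75). Clec14a, an endothelial lectin, was at 2.02 and 2.25 in the embryo and at 4.17 and 4.08 in the yolk sac. That is a difference of 1.99 ± 0.35 (adjusted p = 0.0061). Calcrl, the receptor component for adrenomedullin, was at -0.10 and -0.01 in the embryo and at 2.00 and 1.85 in the yolk sac (1.98 ± 0.22, adjusted p = 0.00049). Both held throughout. Vwf, the platelet-binding protein of endothelial storage granules, rose by 1.96 ± 0.41 (adjusted p = 0.014). That call was lost without embryo 1 (0.073), yolk sac 1 (0.079) or yolk sac 2 (0.079). Plvap, a protein of endothelial fenestrae, rose by 0.92 ± 0.25 (adjusted p = 0.04) and was lost without any 1 of the 4 arrays (0.098 to 0.2).

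The 26 arterial genes tested had a median difference of 0.57. Of them, 5 were higher in the yolk sac and 0 lower, beside 5.46% and 6.09% over all genes. The count was 2 without embryo 1, yolk sac 1 or yolk sac 2. Of 15 endocardial genes 3 were higher and 0 lower, and 0 were higher without any 1 array. Gja5, the connexin of arterial endothelium, was at 2.38 and 3.41 in the embryo and at 5.64 and 5.83 in the yolk sac. It was 7.16-fold higher in the yolk sac (2.84 ± 0.42, adjusted p = 0.0026), and its probe lies at chr3:96857349-96857408 (mm9). Gja4, a second arterial connexin, was at 3.25 and 3.69 in the embryo and at 5.02 on both yolk sac arrays (1.55 ± 0.24, adjusted p = 0.0036). The connexin calls held throughout. Tmem100, Acvrl1 and Bmx also passed (1.91, 1.33 and 0.83), the first of them at 1.22 (adjusted p = 0.24) without embryo 1. Without yolk sac 2 the 3 stood at adjusted p = 0.2, 0.097 and 0.091, and without yolk sac 1 at 0.13, 0.12 and 0.051. Acvrl1 was also lost without either embryo array (0.065 and 0.082), and Bmx without embryo 1 (0.061). The Notch ligand Dll4 (1.03 ± 0.43, adjusted p = 0.15), the ephrin Efnb2 (0.20 ± 0.34, 0.77) and the Notch target Hey1 (-0.23 ± 0.63, 0.86) did not pass, although Dll4 did with normexp (0.034). The arterial genes that passed were thus 2 connexins, a membrane protein (Tmem100), a receptor of the BMP family (Acvrl1) and a kinase (Bmx).

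Calls of venous and lymphatic genes were few and in both directions, beside 5.46% higher and 6.09% lower over all genes. Of 12 venous genes 1 was higher and 2 were lower (median -0.48), and without 1 array 0 to 1 were higher and 0 lower. The venous transcription factor Nr2f2 (-0.76 ± 0.36, adjusted p = 0.21) and the receptor Ephb4 (-0.64 ± 0.36, 0.29) did not pass. Of 13 lymphatic genes 1 was higher and 3 were lower (median -0.95). Prox1, the transcription factor that sets lymphatic identity, was at 0.84 and -0.07 in the embryo and at -3.23 and -3.59 in the yolk sac. It was 13.9-fold higher in the embryo (-3.80 ± 0.47, adjusted p = 0.00091), held throughout, and its probe lies at chr1:191945785-191945844 (mm9). Thy1, a surface glycoprotein of lymphatic endothelium and of mesenchymal cells, was at 3.29 and 2.69 in the embryo and at -0.04 and -0.57 in the yolk sac (-3.29 ± 0.45, adjusted p = 0.0017). Reln, a secreted glycoprotein made by lymphatic vessels and neurons, was at least 5.73-fold higher in the embryo (adjusted p = 0.00053), a call lost with normexp (0.084). Pdpn was higher in the yolk sac by 2.19 ± 0.58 (adjusted p = 0.037), and that call was lost without any 1 of the 4 arrays (0.098 to 0.21). Pdpn is also a marker of mesothelium, and 7 of 15 mesothelial genes were higher in the yolk sac (below). The part of mesothelium in the Pdpn difference was not tested. Flt4 (-0.71 ± 0.31, adjusted p = 0.17) and Lyve1 (0.99 ± 0.48, 0.22) did not pass, although Flt4 did with normexp (0.028).

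The gene with the largest difference toward the embryo was Gm1987, whose probe lies at chr4:42232117-42232176 (mm9). It was at 6.76 and 5.42 in the embryo and at -3.05 and -1.77 in the yolk sac (-8.51 ± 0.60, adjusted p = 3.9e-05). Gm1987 is one of several near-identical copies of the lymphatic chemokine gene Ccl21, so the probe may read more than 1 of them. Ackr1, a chemokine-binding receptor of venules, was lower in the yolk sac (-1.75 ± 0.45, adjusted p = 0.034), and the call was lost without any 1 array (0.06 to 0.22).

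Genes of sinusoidal endothelium gave few calls, with 3 of 19 higher and 1 lower, beside 5.46% and 6.09% over all genes. The list median was 0.03, and fewer were called higher without any 1 array. Stab2, a hyaluronan scavenger receptor, was at 5.31 and 5.71 in the embryo and at 7.74 and 7.48 in the yolk sac (2.10 ± 0.50, adjusted p = 0.024). The call was lost without any 1 of the arrays, with differences between 1.90 and 2.30.

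Of 28 genes of brain endothelium 0 were higher and 6 were lower, beside a background of 5.46% higher and 6.09% lower over all genes. With normexp 4 were higher and 8 lower. The list median was -0.19, and that of all genes was -0.12. Slc7a5, the large neutral amino acid transporter, was at 1.55 and 1.76 in the embryo and at -1.40 and -1.26 in the yolk sac (-2.99 ± 0.26, adjusted p = 0.00012). A second probe of Slc7a5 gave -0.42. Slc38a3, a glutamine transporter, was at 0.32 and 0.64 in the embryo and at -1.35 and -1.41 in the yolk sac (-1.86 ± 0.30, adjusted p = 0.0041). Foxf2, a transcription factor of brain pericytes and endothelium, was at 1.41 and 0.97 in the embryo and at -3.43 and -2.18 in the yolk sac (-4.0 ± 0.60, adjusted p = 0.0029). All 3 held throughout. Slc2a1, the glucose transporter of the blood-brain barrier, was 2.17-fold higher in the embryo (-1.12 ± 0.23, adjusted p = 0.014), a call lost without embryo 1 (0.06), yolk sac 1 (0.09) or yolk sac 2 (0.072). Mfsd2a, the lipid transporter of that barrier, differed by -0.05 ± 0.41 (adjusted p = 0.95). Spock2, a proteoglycan also made in neural tissue, was lower in the yolk sac (-4.33 ± 1.07, adjusted p = 0.028; 0.08 to 0.13 without 1 array). Neural markers were higher in the embryo as well: 13 of 24 were lower and 0 higher in the yolk sac (6 to 12 lower without 1 array). The summed signal of the neural list, in multiples of the 75th percentile, was 97.6 and 99.5 in the embryo and 65.6 and 72.5 in the yolk sac. The part of neural cells in the brain endothelium result, and in the Wnt, Notch and retinoic acid differences that follow, was not tested.

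Wnt signalling, which drives barrier formation in brain vessels, gave 1 higher and 6 lower genes of 36 (2 to 4 lower without 1 array). Wif1, a secreted Wnt inhibitor, was at -2.95 and -1.88 in the embryo and at -6.91 and -7.28, below background, in the yolk sac. It was at least 7.01-fold higher in the embryo (adjusted p = 0.0019) and held throughout. Lef1, a transcription factor and target of the pathway, was at 2.89 and 3.28 in the embryo and at 0.14 and 0.29 in the yolk sac (-2.87 ± 0.65, adjusted p = 0.02). Without any 1 array its adjusted p was 0.065 to 0.1. Ndp, the ligand norrin, was at least 5.24-fold higher in the embryo (adjusted p = 0.0035), lost with normexp (0.061). Axin2, a direct readout gene of the pathway, differed by -0.31 ± 0.55 (adjusted p = 0.77) on its brightest probe and by -2.82 on a second probe, so its probes disagree. Of 21 Notch genes 0 were higher and 2 were lower. Dtx1, a Notch target, was at 1.35 and 0.31 in the embryo and at -3.21 and -2.58 in the yolk sac (-3.73 ± 0.57, adjusted p = 0.0032), and it held throughout. In the retinoic acid list 1 of 18 was higher and 4 were lower. Crabp1, a retinoic acid carrier, was at -0.31 and 0.97 in the embryo and at -5.23 and -3.36 in the yolk sac (-4.63 ± 0.76, adjusted p = 0.0045).

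Of 21 basement membrane genes, 6 were higher in the yolk sac and 0 lower, beside 5.46% and 6.09% over all genes. The median difference was 0.41. The higher count was 2 without yolk sac 2, 3 without yolk sac 1 and 4 to 5 without an embryo array. Lama1, a laminin chain of early epithelial basement membranes, was at 2.71 and 3.60 in the embryo and at 7.45 and 8.13 in the yolk sac. It was 24.9-fold higher there (4.64 ± 0.52, adjusted p = 0.00053), held throughout, and its probe lies at chr17:68171924-68171983 (mm9). Col4a1 and Col4a2, the chains of the main basement membrane collagen, rose by 1.58 ± 0.33 and 1.54 ± 0.29 (adjusted p = 0.013 and 0.0088). Without yolk sac 2 they stood at 0.097 and 0.073, and Col4a1 was also lost without embryo 2 (0.057) and yolk sac 1 (0.052). P4ha1 and P4ha2, the catalytic subunits of the enzyme that hydroxylates collagen prolines, were listed with the hypoxia genes. P4ha2 was at 1.39 and 0.70 in the embryo and at 5.50 and 5.91 in the yolk sac (25.2-fold, 4.66 ± 0.44, adjusted p = 0.0002). P4ha1 was at 0.18 and 0.43 and at 1.73 and 2.16 (1.63 ± 0.21, adjusted p = 0.0013). Both held throughout. Of all 32 hypoxia and glycolysis genes 3 were higher and 2 were lower, and the list median was -0.13.

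Flow-responsive and vasoactive genes gave 7 higher and 1 lower of 30 (median 0.48), and 3 to 6 higher without 1 array. Ace, the angiotensin-converting enzyme, was at -2.18 and -2.12 in the embryo and at 0.52 and 0.30 in the yolk sac (5.89-fold, 2.56 ± 0.19, adjusted p = 4.2e-05). Trpv4, a mechanosensitive calcium channel, was at -1.73 and -1.55 in the embryo and at 0.24 and 0.30 in the yolk sac (1.91 ± 0.26, adjusted p = 0.0018). Both held throughout, with the arrays of each tissue close together. Thbd, the anticoagulant thrombin receptor, rose by 2.13 ± 0.42 (adjusted p = 0.011), and F3, tissue factor, which starts clotting, rose by 4.41 ± 0.95 (0.016). Without yolk sac 2 these were 0.068 and 0.11, without yolk sac 1 0.067 and 0.063, and without embryo 2 0.055 and 0.072. The flow-induced factor Klf2 (1.21 ± 0.45, adjusted p = 0.11) and the nitric oxide synthase Nos3 (0.47 ± 0.30, 0.36) did not pass. The Klf2 difference passed with quantile normalization (1.41, 0.036). Outside that list, Edn2, which encodes a vasoconstrictor peptide, was at -3.70 and -4.65 in the embryo and at 2.98 and 3.39 in the yolk sac (164-fold, 7.36 ± 0.63, adjusted p = 0.00012).

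Fatty acid binding proteins differed in opposite directions. Fabp3, the heart-type carrier, was at 0.64 and -0.66 in the embryo and at 5.85 and 6.07 in the yolk sac. It was 62.6-fold higher there (5.97 ± 0.59, adjusted p = 0.00025), a second probe gave 5.98, and the probe lies at chr4:129992652-129992711 (mm9). Fabp7, the brain-type carrier of radial glia, was at 1.10 and 1.22 in the embryo and at -4.94 and -3.73 in the yolk sac (-5.50 ± 0.52, adjusted p = 0.0002). Fabp4 (1.77 ± 0.72) and Fabp5 (1.12 ± 0.38), the carriers best known from vessels and skin, did not pass (adjusted p = 0.14 and 0.086), although Fabp4 did with normexp (0.043) and with only the 4 arrays (0.044). In the BMP and TGF-beta list 3 of 37 were higher and 5 lower. Fst, a secreted activin and BMP antagonist, was at 1.47 and 0.99 in the embryo and at 5.57 and 5.87 in the yolk sac (22.5-fold, 4.49 ± 0.54, adjusted p = 0.00079). Bmper, another secreted BMP modulator, rose by 3.17 ± 0.74 (adjusted p = 0.022), lost without embryo 1 (0.12), yolk sac 1 (0.083) or yolk sac 2 (0.13).

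Of 31 interferon response genes tested, 30 had a positive difference, and the median was 1.59. The test called 12 higher in the yolk sac and 0 lower, beside 5.46% and 6.09% over all genes. Without 1 array, 8 to 10 of them still passed, and 8 held throughout. Oas1a, a sensor of double-stranded RNA, was at -2.09 and -1.63 in the embryo and at 1.88 and 2.44 in the yolk sac (16.2-fold, 4.02 ± 0.34, adjusted p = 0.00011). Oasl2, of the same family, was at -1.22 and -1.48 in the embryo and at 2.62 and 2.87 in the yolk sac (4.09 ± 0.41, adjusted p = 0.00029). Usp18, which removes the ubiquitin-like ISG15 from proteins, was at -3.24 and -3.47 in the embryo and at 0.70 and 1.39 in the yolk sac (4.40 ± 0.62, adjusted p = 0.0021). As for all 2839 genes that passed, the yolk sac arrays of these genes did not overlap the embryo arrays.

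The transcription factor of this response, Irf7, was at -3.71 and -4.99 in the embryo and at -0.88 and -0.48 in the yolk sac (3.67 ± 0.49, adjusted p = 0.0014). Psmb8, a subunit of the immunoproteasome, was at -2.45 and -3.10 in the embryo and at 0.41 and 0.51 in the yolk sac (3.23 ± 0.29, adjusted p = 0.00015). Bst2, tetherin, which retains budding virus, was at 3.41 and 3.27 in the embryo and at 5.61 and 5.33 in the yolk sac (2.13 ± 0.34, adjusted p = 0.0037). Bst2 was named for its promoter above, after its values had been seen. Ifit1, at the head of the list, was below background in the embryo and at -2.52 and -2.07 in the yolk sac, and did not pass (adjusted p = 0.088; 0.0048 with only the 4 arrays).

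**Figure D2:**
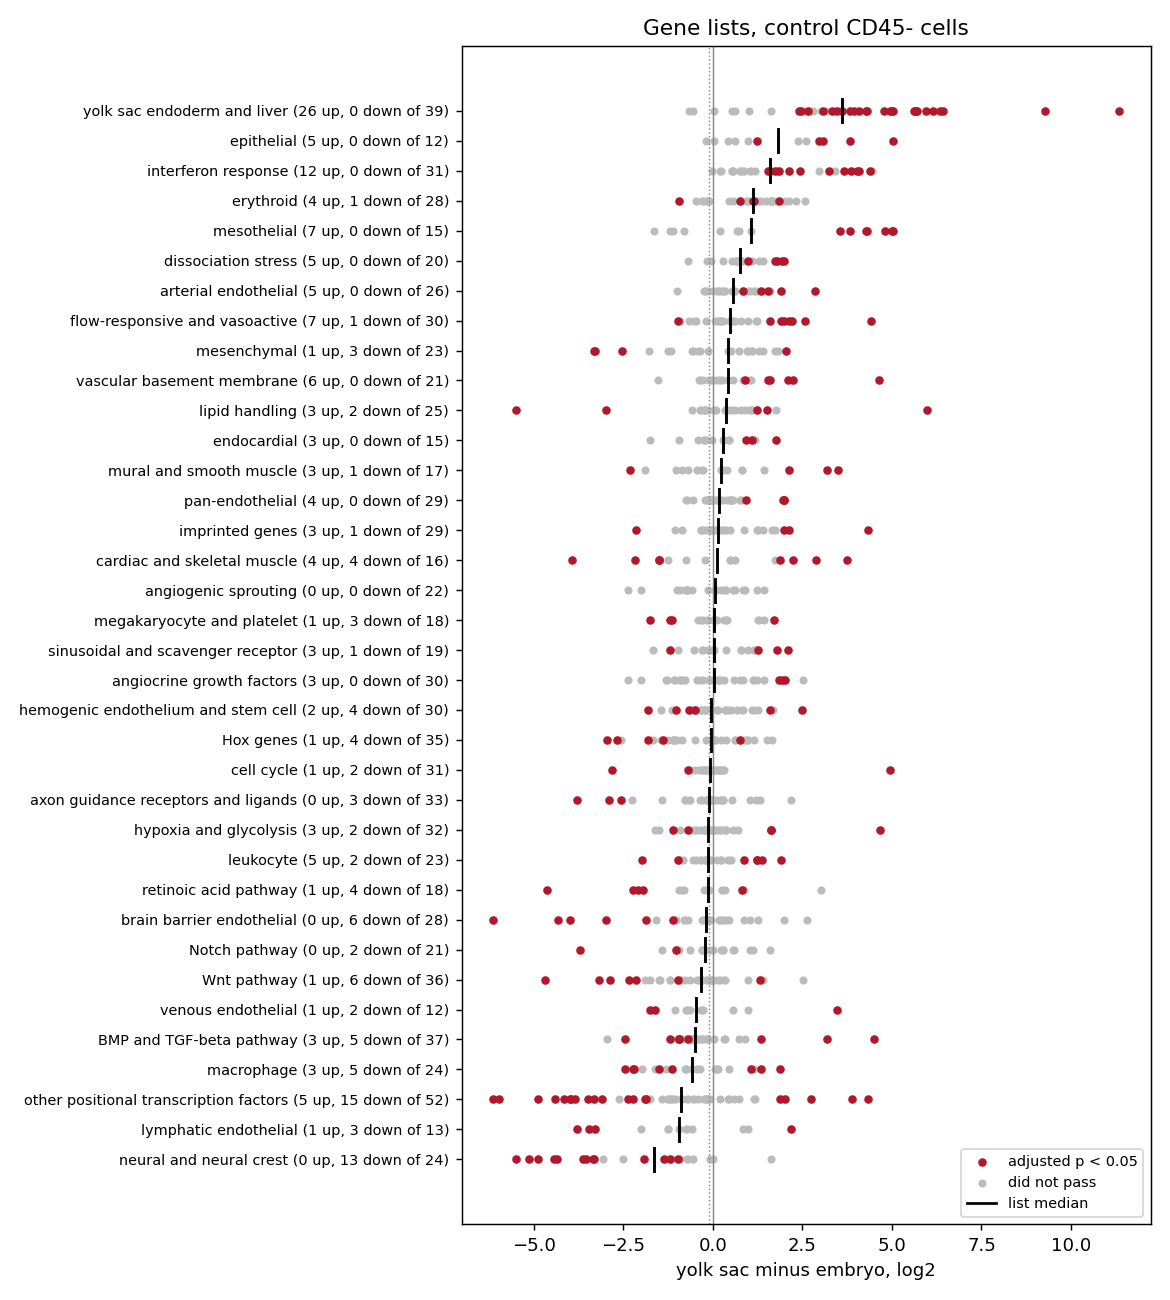
Differences between yolk sac and embryo (log2, horizontal axis) for the genes of 36 lists, 1 point a gene, red where the adjusted p was under 0.05, with a black bar at each list median; the dotted line is the median of all genes. The medians of the yolk sac endoderm, epithelial and interferon lists lie to the right, while the medians of the neural, lymphatic and positional transcription factor lists lie to the left.

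Over all genes, 6.09% were lower in the yolk sac and 5.46% higher. Among 52 transcription factors outside the Hox clusters that record position in the body, 15 were lower, 5 were higher and 32 did not pass. Without 1 array, 5 to 12 were lower and 1 to 3 higher. The median was -0.89, and -0.32 with normexp. Zic2, a factor of neural development, was below background in the yolk sac and at least 18.8-fold higher in the embryo (adjusted p = 0.0075). The Zic2 call was lost without yolk sac 2 (0.056). Nkx2-3, a homeobox factor of gut and spleen vessels, went the other way. It was at -1.49 and -1.02 in the embryo and at 2.74 and 2.51 in the yolk sac (14.7-fold, 3.88 ± 0.45, adjusted p = 0.00064), and it held throughout. Hand1 and Foxf1, factors of extraembryonic and lateral plate mesoderm, rose by 4.32 ± 0.75 and 2.75 ± 0.57 (adjusted p = 0.0057 and 0.014). Hand1 was lost without yolk sac 2 (0.054), and Foxf1 without embryo 2 (0.068), yolk sac 1 (0.089) or yolk sac 2 (0.065).

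Hox genes, whose order along each cluster follows the body axis, were near the background in their calls: 1 of 35 was higher and 4 were lower. Hoxa9 was higher by 0.75 ± 0.18 (adjusted p = 0.024), and Hoxa4, Hoxc5, Hoxd1 and Hoxd13 were lower. Hoxd13 (-2.68 ± 0.73, adjusted p = 0.041) was lost without any 1 array (0.075 to 0.23), with quantile normalization (0.058), with no filter on dim probes (0.065) and with the replicate block (0.057). Grouped by the sign of their difference, Hoxa2 to Hoxa5 gave differences between -1.46 and -1.26. Hoxa6 to Hoxa11 gave differences between 0.61 and 1.51. Among these 9 genes only Hoxa4 (-1.39 ± 0.38, adjusted p = 0.04) and Hoxa9 passed. Without any 1 of the 4 arrays the adjusted p of Hoxa4 was 0.059 to 0.2 and that of Hoxa9 0.069 to 0.16. With normexp background correction, Hoxa2, Hoxa3 and Hoxa5 passed as lower (0.019, 0.0034 and 0.00034) and Hoxa10 and Hoxa11 as higher (0.016 and 0.00095). Hoxa3 (-1.39 ± 0.40, adjusted p = 0.051) also passed with quantile normalization (0.046) and without embryo 2 (0.048). Hoxd1 (at least 2.43-fold, adjusted p = 0.00078) and Hoxc5 (at least 2.82-fold, 0.027), both below background in the yolk sac, no longer passed with normexp (0.65 and 0.16).

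**Figure D3:**
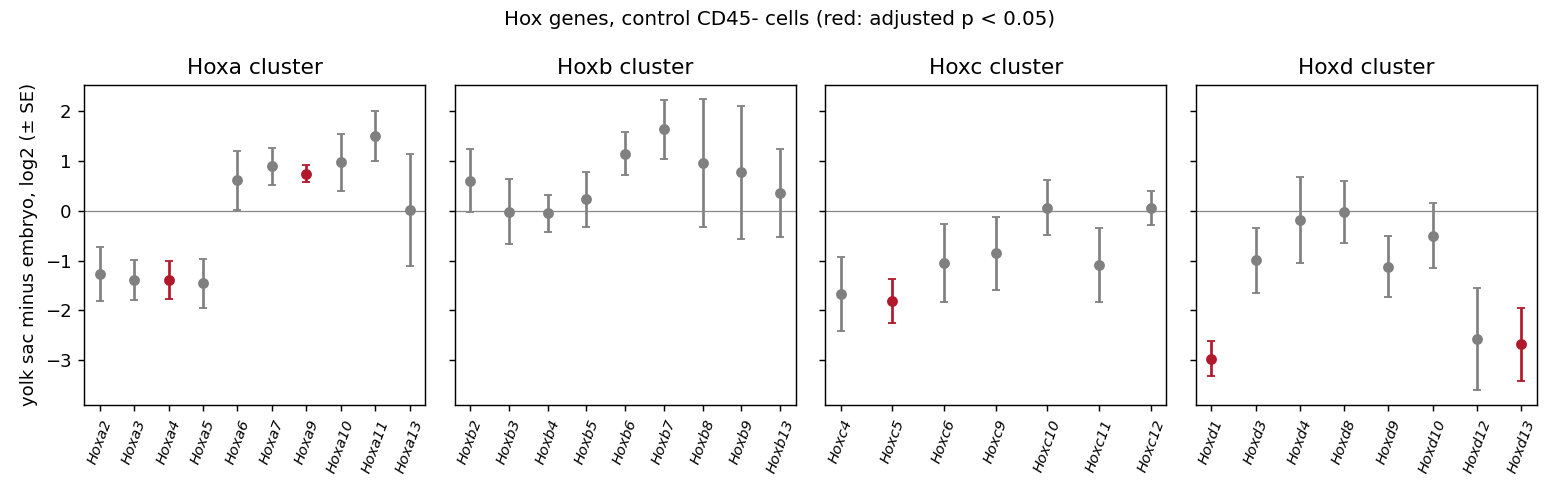
Difference between yolk sac and embryo (log2 ± SE, vertical axis) for 34 Hox genes, by cluster and in paralogue order, red where the adjusted p was under 0.05. In the Hoxa cluster, genes 2 to 5 lie below 0 and genes 6 to 11 above it, with Hoxa4 and Hoxa9 the genes of that cluster that passed.

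Many genes of visceral endoderm were higher in the yolk sac. Of 39 yolk sac endoderm and liver genes, 26 were higher and 0 lower, beside 5.46% and 6.09% over all genes. The median difference was 3.61. S100g, a calcium-binding protein of absorptive epithelia, was below background in the embryo and at 4.45 and 4.06 in the yolk sac, at least 588-fold higher (adjusted p = 0.00018). Its probe lies at chrX:159399938-159399997 (mm9). Apoa4, an apolipoprotein, was likewise below background in the embryo and at 2.34 and 2.27 in the yolk sac, at least 152-fold higher (adjusted p = 0.00034). Spp2, a secreted phosphoprotein, was at -2.54 and -3.55 in the embryo and at 3.50 and 3.28 in the yolk sac (6.44 ± 0.98, adjusted p = 0.0032). These 3 held throughout.

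Most other calls of the endoderm list did not: 6 of the 26 held throughout, and 6 to 15 were called without 1 array. Afp, the fetal serum protein, was already at 5.89 and 4.66 in the embryo and at 8.79 and 8.69 in the yolk sac (3.47 ± 0.85, adjusted p = 0.027; 0.053 to 0.12 without 1 array). Foxa2, an endoderm transcription factor, and Lrp2, the endocytic receptor megalin, rose by 6.14 ± 1.29 and 5.96 ± 1.29 (adjusted p = 0.015 and 0.016). Without embryo 1, yolk sac 1 or yolk sac 2 they stood at 0.073 to 0.093. Alb, at the head of liver genes, differed by -0.55 ± 0.96 (adjusted p = 0.77). The summed signal of the list was 144 and 230 in the embryo and 1190 and 1250 in the yolk sac. It was higher on the yolk sac arrays of CD45-positive cells too (1040 and 2110, against 850 and 978). Of the 39 genes, 0 passed the limma test of whether the tissue difference itself differed between the gates (1 at an unadjusted p under 0.05). Over all genes 0.989% passed that test with a higher value in CD45-negative cells and 0.321% with a lower one. A count of 0 of 39 is near those shares. The list median was 3.61 in CD45-negative and 3.71 in CD45-positive cells. In such bulk samples, more cells of a type and more RNA per cell cannot be told apart.

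Of 15 mesothelial genes 7 were higher and 0 lower, and 2 were higher without yolk sac 2 (5 to 6 without another array). Upk3b, a uroplakin of mesothelium, was 11.8-fold higher in the yolk sac (adjusted p = 0.0043). Upk1b, of the same family, was below background in the embryo and at -1.82 and -1.23 in the yolk sac (adjusted p = 0.00043). Both held throughout. The simple-epithelium keratins, shared with the endoderm list (Krt8, Krt18, Krt19) or the epithelial list (Krt7), were among the higher genes. Krt7, Krt8, Krt18 and Krt19 rose by 5.04, 5.00, 4.30 and 4.28. Without yolk sac 2 their adjusted p was 0.071, 0.062, 0.059 and 0.05, and Krt7 was also lost without embryo 1 (0.067). The summed mesothelial signal, with these keratins included, was 12.1 and 22.9 in the embryo and 195 and 250 in the yolk sac. Of 17 mural and smooth muscle genes tested, 3 were higher and 1 lower, beside 5.46% and 6.09% over all genes. In that list 9 differences were positive and 8 negative, with a median of 0.23 (-0.03 with the strict filter on dim probes). The contractile genes Acta2, Tagln and Actg2 were higher in the yolk sac as well, the last 2 lost without yolk sac 1 (0.07 and 0.064) or yolk sac 2 (0.068 and 0.085), Tagln also without embryo 2 (0.057) and Actg2 without embryo 1 (0.064). Acta2, smooth muscle actin, was at 1.26 and 0.87 in the embryo and at 4.18 and 4.33 in the yolk sac (3.19 ± 0.44, adjusted p = 0.0019). The part of these cell types in the basement membrane, vasoactive and other differences was not tested.

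**Figure D4:**
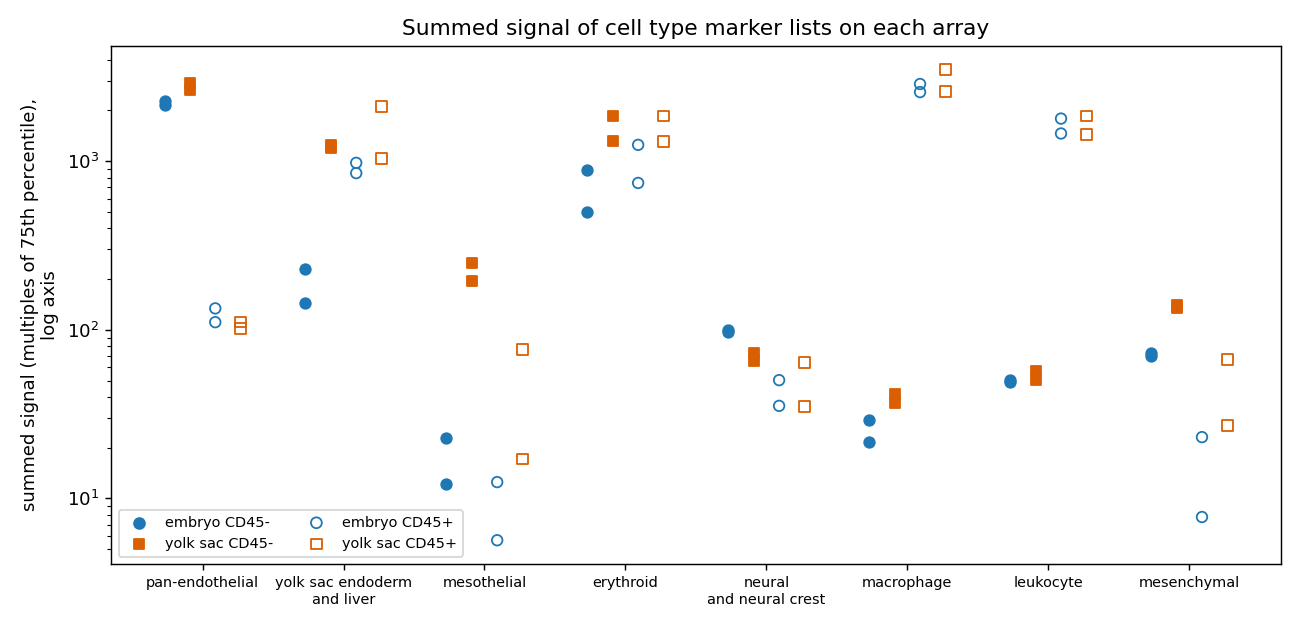
Summed signal of the genes of 8 marker lists (multiples of the 75th percentile of each array, log axis) on the 2 embryo and 2 yolk sac arrays of CD45-negative (filled) and CD45-positive (open) control cells. Among CD45-negative cells, the endoderm list sums to 144 and 230 in the embryo against 1190 and 1250 in the yolk sac, while the leukocyte list stays between 48.9 and 57.3.

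Blood cell genes were called in both directions, beside 5.46% higher and 6.09% lower over all genes. Of 23 leukocyte genes 5 were higher and 2 lower, with summed signals of 48.9 and 50.7 in the embryo and 50.2 and 57.3 in the yolk sac, against 1440 to 1860 in CD45-positive cells. The macrophage list of 24 gave 3 higher and 5 lower genes, and 7 were not well above background in either tissue. Fcgr3, an Fc receptor, rose by 1.87 ± 0.29 (adjusted p = 0.0035), while C1qc, a complement component, was lower (at least 2.29-fold, 0.0039) except with normexp (0.77). The embryonic globins Hba-x and Hbb-bh1 had positive differences of 2.13 ± 0.77 and 2.01 ± 0.83 that did not pass (adjusted p = 0.11 and 0.15). The erythroid list of 28 gave 4 higher and 1 lower genes (median 1.13), and 0 to 2 higher without 1 array. Its summed signal was 502 and 889 in the embryo and 1320 and 1850 in the yolk sac. Genes of hemogenic endothelium gave 2 higher and 4 lower of 30. The blood stem cell factors Runx1 (-0.49 ± 0.67, adjusted p = 0.7), Gata2 (-0.33 ± 0.48, 0.72) and Kit (-0.21 ± 0.58, 0.86) did not pass. Embryo 1 stood at 0.67 and embryo 2 at -2.15 for Runx1, whose second probe gave 0.06 and which passed without embryo 2 (-1.90, adjusted p = 0.0095). Myb fell by 1.80 ± 0.41 (adjusted p = 0.019; 0.059 to 0.13 without 1 array).

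Of 31 cell cycle genes 1 was higher and 2 were lower, near the shares of 5.46% and 6.09% over all genes. The list median was -0.08, and that of all genes was -0.12. Mki67 and Top2a, proliferation markers, differed by 0.16 ± 0.14 and -0.24 ± 0.15 (adjusted p = 0.52 and 0.33). The 1 higher gene was Cdkn2a, an inhibitor of cell cycle entry, at -4.82 and -6.19 in the embryo, below background, and at -0.86 and -0.25 in the yolk sac (at least 21-fold, adjusted p = 0.00059). It held throughout. Immediate early genes, which respond to cell dissociation, gave 5 higher and 0 lower of 20 (0 to 4 higher without 1 array). Fos and Fosb rose by 1.98 ± 0.37 and 1.75 ± 0.33 (adjusted p = 0.0084 and 0.0083), and both were lost without yolk sac 1 (0.056 and 0.061). Fos was also lost without embryo 1 (0.059) or yolk sac 2 (0.056). The imprinted growth genes Igf2 (-0.09 ± 0.35, adjusted p = 0.91) and H19 (0.31 ± 0.32, 0.58) did not pass, and of 29 imprinted genes 3 were higher and 1 lower.

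Among the genes with the largest differences toward the yolk sac, Gsta1, Gsta2 and Gm10639, glutathione transferase genes whose probes may read each other's transcripts, were at least 270-fold, 113-fold and 325-fold higher (adjusted p = 0.0002, 0.0002 and 2.2e-05). Gkn2, a secreted protein of gastric mucosa, was at -0.87 and -2.80 in the embryo and at 6.62 and 6.90 in the yolk sac (386-fold, adjusted p = 0.00043). Glipr1, a secreted CAP-family protein, was at -3.84 and -4.86 and at 3.21 and 3.60 (216-fold, adjusted p = 1.8e-05). Mucl3 (191-fold), Lgals2 (187-fold) and Folr1 (175-fold), the last a folate receptor, were measured in both tissues. Mbl2, Eps8l3, Rhox6 and 4933402E13Rik were below background in the embryo and at least 34.7-fold to 91.1-fold higher. Tff1, a mucosal trefoil peptide, was at -0.97 on embryo 1 and -6.88 on embryo 2, against 5.41 and 5.09 in the yolk sac (9.17 ± 1.58, adjusted p = 0.0057; 0.056 with only these 4 arrays).

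Rhox6 is an X-linked homeobox gene of the placenta and germ line. Others of that kind were looked at after its values had been seen. They form no list fixed beforehand, and the number examined is not given. Those named here therefore do not show what share of such genes differed. The X-linked Rhox9 and Trap1a were 54.8-fold and 66.4-fold higher in the yolk sac. The X-linked Esx1, Xlr5b and Pnma5, below background in the embryo, were at least 14.1-fold, 33.8-fold and 20.6-fold higher. The autosomal Tex19.1 was 129-fold higher, and Pramel13 and Zfp42, below background in the embryo, were at least 64.8-fold and 13.6-fold higher. Rhox and Xlr5 genes have near-identical copies that a probe may not tell apart. All 8 held throughout, with adjusted p between 0.00028 and 0.0026. By the probe coordinates, 86 of 1330 genes higher in the yolk sac lay on the X chromosome (6.47%), against 63 of 1483 lower genes (4.25%) and 955 of all 24397 genes with coordinates (3.91%).

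The largest differences toward the embryo, after Gm1987, included several genes of neural tissue. Pantr1, a noncoding RNA beside a brain transcription factor gene, Ebf2, a neural transcription factor, and Scn3a, a neuronal sodium channel, were below background in the yolk sac. They were at least 23.9-fold, 12.1-fold and 43.2-fold higher in the embryo (adjusted p = 0.00064, 0.0048 and 0.001). Calca, the gene of calcitonin and its related vasodilator peptide, and Ptx3, a secreted pentraxin, were at least 17.4-fold and 39-fold higher. Slc7a14, a lysosomal transporter, was at -1.67 and -1.08 in the embryo and below background in the yolk sac (at least 14.4-fold, adjusted p = 4.9e-06). Myh3, Oc90 and Crym were at least 14.3-fold, 14-fold and 16.6-fold higher. Among neural markers, Elavl3 and Nefm were at least 13.3-fold and 13.9-fold higher, and Tubb3 was 20.5-fold higher (adjusted p = 0.0042). Tubb3 stood at 2.00 on embryo 2 but -0.30 on embryo 1, and Elavl3 at -0.09 and -2.90. Ccl7 (-5.22 ± 1.24, adjusted p = 0.024) was lost without embryo 1 (0.15), without yolk sac 2 (0.18), with normexp (0.09) and with only the 4 arrays (0.089).

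The CD45-positive control cells came from the same tissues and lay on the same pair of slides. The difference between the gates in the tissue difference was tested as the second contrast of the fit, in which a slide effect equal in both gates cancels. It passed for 243 genes with a higher value in CD45-negative cells (0.989% of those tested) and for 79 with a lower one (0.321%). Of these, 216 were also higher and 73 also lower in the direct comparison. Without 1 of the 8 arrays, the counts ran from 116 to 380 and from 40 to 186. With only the 8 control arrays in the fit they were 65 and 16, and 31 genes passed under all 17 alternatives.

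Of those, Glipr1, Fabp3, Slc34a2, Slc6a2, Nxf3 and Mucl3 had a larger yolk sac excess in CD45-negative than in CD45-positive cells. Glipr1 differed by 7.75 in CD45-negative and -0.82 in CD45-positive cells, which expressed it in both tissues (2.83 to 4.27), a gap of 8.58 ± 0.64 (adjusted p = 0.00039). Its probe lies at chr10:111423707-111425891 (mm9). Fabp3 differed by 5.97 and -0.54, a gap of 6.51 ± 0.83 (adjusted p = 0.0046). Slc34a2, a phosphate transporter, Slc6a2, the noradrenaline transporter, and Nxf3, an X-linked relative of an RNA export factor, were not well above background in CD45-positive cells or in the CD45-negative embryo, so their gaps depend on levels below background. The fitted gaps were 6.75, 6.43 and 6.42 (adjusted p = 0.00039, 0.0011 and 0.00039), and 2.01, 2.46 and 2.81 with normexp. Edn2 gave a gap of 6.36 ± 0.90 (adjusted p = 0.0076), lost with only the 8 control arrays (0.083). On the embryo side, Slc7a14 gave a fitted gap of -5.76 (adjusted p = 0.00013) and of -1.55 with normexp. It was above background only in the CD45-negative embryo, so the size of its gap is not measured. Prkcb, a protein kinase C, was at 0.16 and 0.52 in the embryo and at -4.41 and -3.83 in the yolk sac among CD45-negative cells. In CD45-positive cells it was at 3.47 to 3.68 in both tissues (gap -4.40 ± 0.39, adjusted p = 0.00074). Enpp2, the secreted enzyme autotaxin, was at 2.44 and 2.48 in the embryo and at -0.36 and -0.41 in the yolk sac. In CD45-positive cells it was at 1.22 and 1.72 and at 3.41 and 2.51, and its gap was -4.34 ± 0.60 (adjusted p = 0.0068).

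Several genes of the groups above also passed this second test. Ace (1.86 ± 0.26, adjusted p = 0.0074), Psmb8 (3.06 ± 0.41, 0.0056), Slc38a3 (-2.77 ± 0.43, 0.011), Slc7a5 (-2.36 ± 0.36, 0.011) and Prox1 (-3.91 ± 0.66, 0.017) did. With only the 8 control arrays each was lost (0.086, 0.094, 0.077, 0.097 and 0.083). Slc38a3 was also lost without yolk sac 2 of CD45-negative cells (0.053), and Slc7a5 without yolk sac 1 (0.055). Prox1 was lost without embryo 1, yolk sac 1 or yolk sac 2 of CD45-negative cells (0.066, 0.055 and 0.084) and without 2 of the CD45-positive arrays (0.053 and 0.055). By limma, 2 of 31 interferon and 3 of 32 hypoxia genes passed, all in the higher direction. Of 29 pan-endothelial, 26 arterial and 39 endoderm genes, 0 passed (3, 5 and 1 at an unadjusted p under 0.05). Over all genes only 0.989% passed as higher and 0.321% as lower. A count of 0 in lists of this size therefore does not show that the gates agree.

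**Figure D5:**
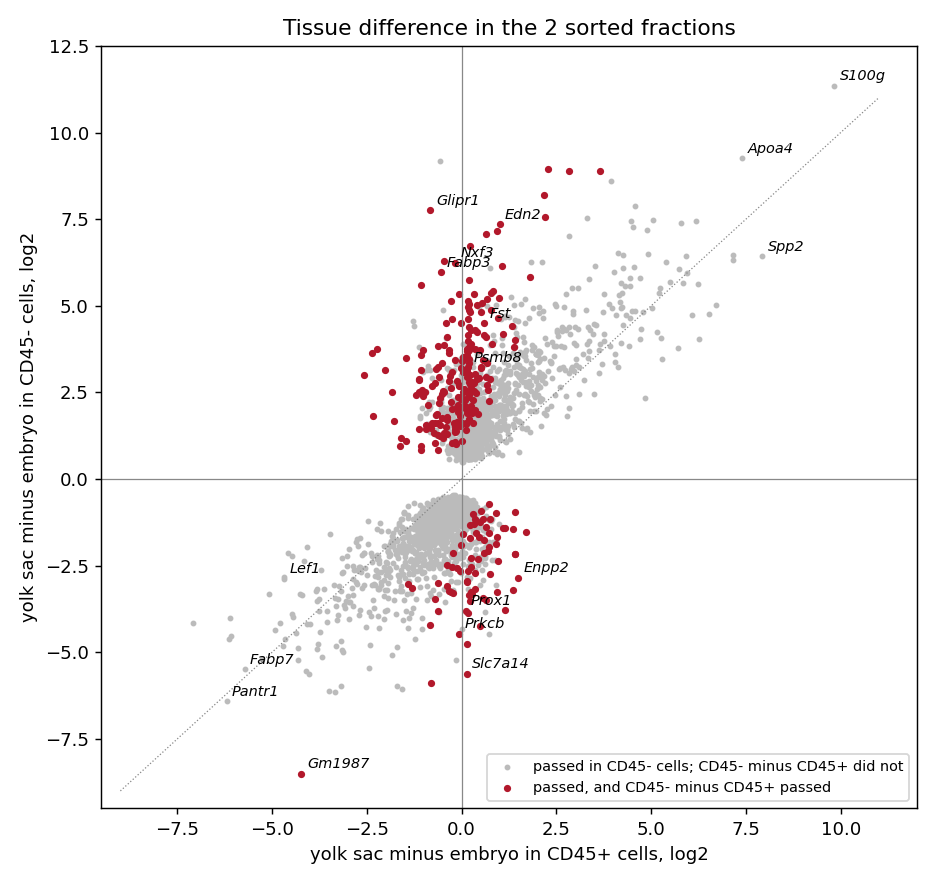
Difference between yolk sac and embryo (log2) in CD45-positive cells (horizontal axis) and CD45-negative cells (vertical axis) for the genes that passed in CD45-negative cells, red where the gap between gates also passed; the dotted line marks equal differences. S100g, Apoa4, Spp2, Fabp7 and Pantr1 lie near that line, whereas Glipr1, Fabp3, Edn2, Slc7a14 and Prkcb lie between -0.82 and 1.00 on the horizontal axis.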

How the data were processed

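Total RNA of FACS-sorted cells was labelled with Cy3 and hybridised to Agilent arrays, per the labels, and scanned with Agilent Feature Extraction 10.7, per the submitters' processing notes. The deposited scanner files hold 1-colour spot intensity; the processed signal column used here is the scanner software's, per the file headers. The series' value table was not used. Control and outlier spots were left out, spots of a probe were averaged as log2 intensity, and the 75th percentile of each array was subtracted. Probes detected over background in each replicate of 1 or more of the 8 groups were kept (34126 probes), and the brightest probe stood for a gene. Probes were named through the RefSeq gene table by accession, symbol or synonym (16532 of 24578 genes), and probe coordinates are mm9, per the file headers. Group means were fitted in limma 3.58.1 (R 4.3.3) over all 16 arrays, with 8 residual degrees of freedom, and the script was tested on simulated data. The number of arrays limits the precision.

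Genes named were the 15 largest differences each way that passed, were above background in the brighter tissue and did not overlap, the first 6 and up to 6 passing genes each way of each list, all Hox genes, the 8 largest each way of the second comparison, and the genes of the sort and transgene. Exceptions are marked as chosen after their values were seen. The comparison and the lists were chosen with earlier results of these data known. Alternatives covered scaling, background correction, the filter on dim probes, the choice of probe, the arrays in the fit, the prior, a replicate block and leaving out each array. Some genes of the lists are not reported here by name.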

Additional observations from a re-analysis of the deposited data

Results flagged for a closer look

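The tissue difference in CD45-negative cells itself differed from that in CD45-positive cells, by the second contrast of the limma fit, for 243 genes in the higher and 79 in the lower direction. Values here are the CD45-negative minus the CD45-positive difference (log2).

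On the yolk sac side these were Glipr1 (8.58), Slc34a2 (6.75), Dusp13 (6.67), Gsta1 (6.66), Fabp3 (6.51), Slc6a2 (6.43), Nxf3 (6.42), Edn2 (6.36), Gsta2 (6.01), Mucl3 (5.39), Gm10639 (5.25) and Zfp42 (4.61). Genes of the lists followed with Fst (3.90), P4ha2 (3.70), Psmb8 (3.06), Oas1a (2.60), Hk2 (2.34), Ace (1.86) and P4ha1 (1.76). Hk2, which commits glucose to glycolysis, was at 0.40 and -0.04 in the CD45-negative embryo and at 1.39 and 2.23 in the yolk sac.

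On the embryo side these were Chil3 (-5.93), Slc7a14 (-5.76), Calca (-5.07), Gjb6 (-4.93), Crisp3 (-4.91), Prkcb (-4.40), Enpp2 (-4.34) and Gm1987 (-4.28), with Prox1 (-3.91), Ndp (-3.53), Hoxd1 (-3.11), Slc38a3 (-2.77), Reln (-2.77) and Slc7a5 (-2.36) from the lists. Chil3, a macrophage and granulocyte protein, differed in opposite directions: -2.83 in CD45-negative cells (adjusted p = 0.053 by limma) and 3.10 in CD45-positive cells.

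Of the genes named here, Slc7a14, Prkcb, Enpp2, Glipr1, Slc34a2, Fabp3, Slc6a2, Nxf3 and Mucl3 passed under all 17 alternatives of the second comparison. Each of the others lost the call under at least 1 of them.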

How the results depend on the processing

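No named gene that passed changed direction under the alternatives run. Leaving out 1 array gave 520 to 1167 higher and 356 to 1336 lower genes in the tissue comparison, and 116 to 380 and 40 to 186 in the second comparison. The lower count was 965 with no filter on dim probes, 831 with only the 4 arrays and 991 with a 2-fold minimum. In the second comparison the strict filter gave 132 and 28, and only the 8 control arrays 65 and 16. Of all calls, 47.3% were higher in the yolk sac. Scaling turned that balance: quantile normalization gave 1700 higher and 1507 lower, and detected-probe scaling 1601 and 1206. The share was 57.5% with only the 4 arrays and 59.4% without yolk sac 2.

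Whether replicate numbers pair the samples cannot be told from these arrays. With 2 arrays a group the deviations mirror each other, so their correlation of 0.095 is only 1 value. With the replicate block, 1508 genes were higher and 1866 lower, and on the 4 arrays alone 1056 and 777. In the second comparison the replicate block gave 264 and 96.

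Of 119 named genes that passed, 76 did so under every alternative, 37 lost the call without 1 array and 21 with all 4 arrays kept. Of 37 list medians, 15 took the opposite sign under some alternative. Normexp narrowed differences of dim genes, as for S100g (6.53 against 11.35) and Zic2 (-1.76 against -5.97). Genes below background carry only a bound.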
